A study of Mus musculus with 9 samples.

Results

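The 8 genes described here act in meiosis and in the formation of sperm. They were chosen by symbol, as *Sycp1*, *Sycp3*, *Hormad1*, *Tex101*, *Dpep3*, *Tuba3a*, *Slc25a31* and *Taf7l*, and all 8 were found among the 15074 genes of the expression table. The choice was made with earlier results of these data known. In adult mammals such genes are used mainly in germ cells, where chromosomes pair and recombine and spermatids are built. Many of them carry CpG-containing promoters that are methylated in somatic cells and are held silent by that methylation together with repressor complexes such as PRC1.6 and E2F6. DNMT1 is the enzyme that copies CpG methylation onto newly replicated DNA.

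RNA-seq of poly(A) RNA was compared between 3 lines of mouse embryonic stem cells (ESCs) of the J1 cell line. WT ESCs are wild type. 1KO ESCs are Dnmt1-/- cells derived from them. 1KO+1CI ESCs carry, in addition to Dnmt1-/-, a transgene for DNMT1C1229S, a catalytically inactive form of the protein driven by the ubiquitous CAG promoter. More than 1 clone of them was made. The columns of these libraries carry the same label, CI6, on all 3 days, which may name 1 clone. What the label means is not stated in the sources used here. Each line was sequenced at day 0, when the ESCs grew on mitomycin C-treated embryonic fibroblasts with LIF and serum, and at days 2 and 4 of differentiation through embryoid bodies without LIF. Feeder cells had been depleted before embryoid bodies were formed. Each of the 9 conditions has 1 library, so no value has a replicate error, and whether lines or days were cultured side by side is not given in the sources used here. In bulk RNA, a change in the number of cells that express a gene and a change in RNA per cell cannot be told apart.

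Expression is given in FPKM, reads per kilobase of transcript, scaled by library depth. The libraries hold between 20100000 and 28000000 counted reads, recovered from the spacing of the low values, so that an FPKM of *Tex101* can be read back as 2 reads or 65. Intervals given with levels and ratios are exact 95% intervals for this counting error only and do not cover the spread between cultures. *Dnmt1*, the gene knocked out in 1KO cells, stood at 74.0, 80.4 and 48.5 FPKM in WT cells at days 0, 2 and 4, at 13.7, 17.4 and 12.3 FPKM in 1KO cells, and at 315, 129 and 158 FPKM in 1KO+1CI cells. Some *Dnmt1* RNA was thus still read in 1KO cells. The labels and the *Dnmt1* level thus went together in all 9 libraries. Pluripotent identity was checked on 7 markers of undifferentiated ESCs, all of which were in the table and whose summed level ranged from 898 to 1733 FPKM over the libraries. At day 4, 5 of the 7 were called lower than at day 0 (12.3% of all genes), with fitted differences of −4.44 for *Klf4*, −3.94 for *Zfp42*, −3.77 for *Esrrb*, −3.07 for *Tfcp2l1* and −1.47 for *Sox2*. *Pou5f1*, which makes up most of the sum at day 4, had a difference of 0.11 (SE 0.187, adjusted p = 0.716). Several genes described below have low levels, and *Tex101* and *Dpep3* did not exceed 2.95 FPKM in any library.

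Line differences were described in 3 ways. The first is the ratio of FPKM between lines on 1 day. The second is the difference in log2(FPKM + 1) on 1 day, counted as past the fold when it was at least 1. The third is the line difference in an additive model of line and day fitted to the 9 libraries together (limma, adjusted over 15074 genes, called at an adjusted p under 0.05). The spread in this fit is what is left over when 1 line difference is assumed for all 3 days, and it is not a spread between cultures. The comparisons share libraries, so their values are given side by side.

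Promoters of the 8 genes were read from RefSeq (GRCm38.p6, the mm10 assembly), as 250 bases before to 50 bases after each annotated start. The window of *Tuba3a* is chr6:125286032-125286331 (minus strand), that of *Slc25a31* chr3:40708621-40708920 (plus), that of *Taf7l* chrX:134476441-134476740 (minus), that of *Tex101* chr7:24672001-24672300 (minus) and that of *Sycp1* chr3:102936051-102936350 (minus). The first 4 are shown because these genes were higher in every 1KO and 1KO+1CI library than in every WT library. *Sycp1* is shown as an example of a gene with both motifs and no called line difference. *Sycp3* and *Hormad1* also carry both motifs and had no called line difference, and their windows are not shown. Capitals mark the E-box CACGTG, the core of the motif bound by MGA-MAX dimers, and TCCCGC, the core of the motif bound by E2F6, searched on both strands, so that the latter also appears as GCGGGA.
Tuba3a: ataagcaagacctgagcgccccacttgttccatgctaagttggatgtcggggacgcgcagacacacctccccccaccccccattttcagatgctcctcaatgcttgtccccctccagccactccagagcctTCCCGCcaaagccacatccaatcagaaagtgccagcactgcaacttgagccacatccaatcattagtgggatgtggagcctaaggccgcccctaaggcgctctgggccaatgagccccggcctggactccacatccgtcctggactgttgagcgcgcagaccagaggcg
Slc25a31: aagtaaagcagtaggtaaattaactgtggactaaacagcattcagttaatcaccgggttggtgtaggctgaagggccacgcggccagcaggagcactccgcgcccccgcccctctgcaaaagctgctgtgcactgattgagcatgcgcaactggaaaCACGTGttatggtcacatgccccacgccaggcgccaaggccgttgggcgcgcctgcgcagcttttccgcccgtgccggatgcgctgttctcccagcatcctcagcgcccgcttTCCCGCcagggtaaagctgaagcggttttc
Taf7l: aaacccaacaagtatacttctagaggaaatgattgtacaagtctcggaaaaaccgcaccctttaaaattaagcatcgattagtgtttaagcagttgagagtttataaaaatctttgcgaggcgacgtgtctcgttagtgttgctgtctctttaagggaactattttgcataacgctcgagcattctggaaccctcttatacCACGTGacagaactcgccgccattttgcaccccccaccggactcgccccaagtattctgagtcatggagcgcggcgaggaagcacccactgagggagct
Tex101: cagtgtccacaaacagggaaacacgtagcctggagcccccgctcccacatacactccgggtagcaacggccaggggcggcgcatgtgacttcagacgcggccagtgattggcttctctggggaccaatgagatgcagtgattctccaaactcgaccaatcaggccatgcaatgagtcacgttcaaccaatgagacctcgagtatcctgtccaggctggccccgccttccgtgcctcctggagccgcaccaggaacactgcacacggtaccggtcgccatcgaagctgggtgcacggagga
Sycp1: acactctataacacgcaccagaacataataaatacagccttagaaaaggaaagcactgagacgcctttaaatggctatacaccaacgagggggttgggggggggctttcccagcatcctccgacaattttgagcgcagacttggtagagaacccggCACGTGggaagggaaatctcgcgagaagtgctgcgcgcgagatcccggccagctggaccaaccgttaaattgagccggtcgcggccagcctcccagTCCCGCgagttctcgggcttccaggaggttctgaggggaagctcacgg

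The E-box lay in 5 of the 8 windows, once in *Sycp1*, *Slc25a31* and *Taf7l* and at 2 positions in *Sycp3* and in *Hormad1*. All 7 matches began between 20 and 94 bases before the annotated start. Among the 11638 genes of the table with a 300-base window, 10.2% had an E-box. TCCCGC lay in 5 windows too, those of *Sycp1*, *Sycp3*, *Hormad1*, *Tuba3a* and *Slc25a31*, against 35.7% of all windows. *Tex101* and *Dpep3* had neither motif in these windows. The window of *Tex101* lies inside the gene (chr7:24668007-24676675, minus strand), away from its outer start. Its motif and CpG counts thus describe an internal annotated start, and the outer start was not read. The windows held 12 CpGs in *Dpep3* and *Tuba3a*, 15 in *Sycp3*, 17 in *Taf7l*, 19 in *Tex101*, 21 in *Sycp1*, 22 in *Slc25a31* and 24 in *Hormad1*, where the median over all windows was 20 and the quartiles were 12 and 28. DNA methylation of these promoters was not analysed here, and a motif match is a description of letters, not of binding.

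The chromosome axis and the synaptonemal complex hold homologous chromosomes together in meiotic prophase. *Sycp1* (chr3:102818499-102936100) encodes the transverse filament of the complex. Its level was 2.45, 2.70 and 2.04 FPKM in WT cells at days 0, 2 and 4, it was 2.24, 2.86 and 2.51 FPKM in 1KO cells, and it was 3.05, 4.04 and 2.06 FPKM in 1KO+1CI cells. All 9 libraries lay within 2.04 to 4.04 FPKM, and the lines overlapped. In the order of levels, 7 of the 8 neighbouring libraries had overlapping intervals, and only 1KO+1CI at day 2 stood apart from the next. For 1KO over WT, the ratio had an interval that included 1 on every day, for example 0.912 (0.742 to 1.12) at day 0. For 1KO+1CI over WT, the ratio was 1.24 (1.02 to 1.52) at day 0 and 1.50 (1.26 to 1.80) at day 2, and 1.01 (0.80 to 1.29) at day 4. The fitted difference was 0.06 (SE 0.158, adjusted p = 0.905) for 1KO against WT and 0.23 (SE 0.158, adjusted p = 0.464) for 1KO+1CI against WT.

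*Sycp3* (chr10:88459569-88473236) encodes an axis protein. Its level was 12.8, 6.71 and 16.2 FPKM in WT cells at days 0, 2 and 4, 3.52, 6.92 and 11.4 FPKM in 1KO cells, and 5.82, 9.55 and 4.98 FPKM in 1KO+1CI cells. At day 0, 1KO cells had 0.276 times the WT level (0.219 to 0.343), and 1KO+1CI cells 0.456 times (0.373 to 0.554). At day 2 the ratio of 1KO to WT was 1.03 (0.834 to 1.28), and that of 1KO+1CI to WT was 1.42 (1.17 to 1.74). At day 4 the ratios were 0.704 (0.604 to 0.822) and 0.307 (0.246 to 0.378). WT cells were thus highest at days 0 and 4 but not at day 2. In WT cells the day 2 level was 0.526 times that of day 0 (0.436 to 0.634) and the day 4 level was 2.42 times that of day 2 (2.02 to 2.89), whereas 1KO cells had 1.97 times the day 0 level at day 2 (1.55 to 2.54). The fitted difference from WT was −0.68 for 1KO (SE 0.394, adjusted p = 0.479) and −0.69 for 1KO+1CI (SE 0.394, adjusted p = 0.368), and neither was called.

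*Hormad1* (chr3:95559677-95587671) encodes an axis protein that watches over chromosome pairing. In all, 3 RefSeq transcripts are annotated for it, and how its deposited FPKM combines them is not known, so its reads and intervals are estimates. Its level was 2.43 and 2.53 FPKM in WT cells at days 0 and 2, 8.49 and 9.35 FPKM in 1KO cells, and 13.7 and 14.1 FPKM in 1KO+1CI cells. At day 4 WT cells were at 0.533 FPKM, 1KO cells at 0.669 FPKM and 1KO+1CI cells at 0.649 FPKM. The mutant lines were thus above WT cells at days 0 and 2, and the intervals of the 3 lines overlapped at day 4. Over the WT level, 1KO cells had a ratio of 3.49 (2.72 to 4.59) at day 0, 3.70 (2.90 to 4.75) at day 2 and 1.25 (0.642 to 2.61) at day 4. For 1KO+1CI the ratios were 5.65 (4.42 to 7.38), 5.56 (4.40 to 7.04) and 1.22 (0.603 to 2.57). The fitted differences were 1.05 (SE 0.363, adjusted p = 0.230) and 1.43 (SE 0.363, adjusted p = 0.0705) and were not called. Without the WT day 4 library, they were 1.61 (adjusted p = 0.0207) and 2.00 (adjusted p = 0.00936), and the 1KO+1CI value also passed without the whole of day 4 (adjusted p = 0.0145) and with a pseudocount of 0.01 (adjusted p = 0.0487). Across lines, *Hormad1* fell by 2.28 from day 0 to day 4 on the log2 scale (SE 0.363, adjusted p = 0.00455), the deepest change with time of the 8 genes. All 3 day 4 libraries lay below all 3 day 0 libraries. The share of all genes with such a separation was not counted, and 12.3% of all genes were called lower at day 4 than at day 0. The *Hormad1* call held with each single library left out and was lost without the whole 1KO line (adjusted p = 0.0826).

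*Tex101* and *Dpep3* encode proteins tethered to the germ-cell surface, and TEX101 and DPEP3 are known to bind one another on testicular germ cells. *Tex101* (chr7:24668007-24676675) was close to the limit of counting in WT cells, where it rested on 2, 3 and 9 reads, or 0.092, 0.117 and 0.408 FPKM. It stood at 1.53, 2.95 and 1.43 FPKM in 1KO cells and at 1.67, 2.02 and 1.61 FPKM in 1KO+1CI cells, on 34 to 65 reads. Every mutant library was above every WT library. The ratio of 1KO to WT was 16.6 (4.33 to 141) at day 0, 25.2 (8.22 to 125) at day 2 and 3.51 (1.65 to 8.33) at day 4. For 1KO+1CI it was 18.2 (4.72 to 155), 17.3 (5.52 to 86.6) and 3.94 (1.85 to 9.34). The fitted difference was 1.27 (SE 0.185, adjusted p = 0.0214) for 1KO and 1.21 (SE 0.185, adjusted p = 0.0168) for 1KO+1CI, and both were called. The call was not robust to single libraries. For 1KO, the adjusted p was 0.0748 without WT day 2, between 0.0876 and 0.133 without any one of the 3 1KO libraries, and 0.0513 without 1KO+1CI day 0. For 1KO+1CI, it was 0.0543 without WT day 2 and between 0.0686 and 0.0919 without any one of the 1KO+1CI libraries. Both calls were also lost without the whole of any one day (adjusted p from 0.0741 to 0.249 for 1KO and from 0.0558 to 0.128 for 1KO+1CI).

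*Dpep3* (chr8:105973513-105979429) encodes a membrane-bound dipeptidase. Its level was 0.924, 0.712 and 0.284 FPKM in WT cells at days 0, 2 and 4, 0.277, 0.569 and 0.845 FPKM in 1KO cells, and 1.62, 0.901 and 0.622 FPKM in 1KO+1CI cells. These rest on 10 to 65 reads, and in the order of levels all 8 neighbouring pairs of libraries had overlapping intervals. The day 4 level was below the day 0 level in WT cells and above it in 1KO cells. The ratio of 1KO to WT was 0.30 (0.144 to 0.586) at day 0 and 2.98 (1.43 to 6.79) at day 4. At day 0, 1KO+1CI cells had 5.86 times the 1KO level (3.20 to 11.6). The fitted difference from WT was −0.06 (SE 0.219, adjusted p = 0.927) for 1KO and 0.31 (SE 0.219, adjusted p = 0.476) for 1KO+1CI. The partner of *Tex101* thus had no called line difference.

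The last 3 genes serve the cytoskeleton, ATP exchange and transcription in developing sperm. *Tuba3a* (chr6:125278274-125286042) encodes an alpha-tubulin of the testis. Its level was 3.40, 3.39 and 2.36 FPKM in WT cells at days 0, 2 and 4, 20.5, 19.9 and 11.8 FPKM in 1KO cells, and 19.0, 19.4 and 8.51 FPKM in 1KO+1CI cells. The lowest mutant library was 1KO+1CI at day 4, and its interval (7.50 to 9.61) lay above that of the highest WT library (2.79 to 4.11). Relative to WT cells, 1KO cells had a ratio of 6.04 (4.93 to 7.45) at day 0, 5.88 (4.83 to 7.15) at day 2 and 5.00 (3.89 to 6.47) at day 4. For 1KO+1CI it was 5.58 (4.55 to 6.92), 5.71 (4.69 to 6.95) and 3.60 (2.77 to 4.72). The fitted differences of 2.16 (SE 0.156, adjusted p = 0.00232) and 1.97 (SE 0.156, adjusted p = 0.0030) were the largest of the 8 genes on the log2(FPKM + 1) scale, which shrinks differences of low genes. With a pseudocount of 0.1, *Tex101* had the larger values (2.83 and 2.75, against 2.45 and 2.24 for *Tuba3a*). Both *Tuba3a* calls held with each single library left out and were lost when the whole of day 0 or of day 2 was left out, with adjusted p between 0.0543 and 0.113. *Tuba3a* fell with time, by 0.74 from day 0 to day 4 (SE 0.156, adjusted p = 0.0139). That call was lost without 1KO day 0, 1KO day 4, 1KO+1CI day 0 or 1KO+1CI day 4, with adjusted p between 0.0517 and 0.0792. It was also lost without the whole 1KO line (adjusted p = 0.160), the whole 1KO+1CI line (0.137) or the line term (0.553). *Tuba3b* is a near-identical copy that is not among the genes used here, and how reads shared between the copies were counted is not given in the sources used here, so the level of *Tuba3a* is uncertain in that respect. The other alpha-tubulins *Tuba1a*, *Tuba1b*, *Tuba1c*, *Tuba4a* and *Tuba8* had fitted differences between −0.21 and 0.18 in both comparisons with WT.

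*Slc25a31* (chr3:40708855-40726096) encodes the ADP/ATP carrier AAC4 of sperm mitochondria. Its level was 0.321, 1.15 and 1.06 FPKM in WT cells at days 0, 2 and 4, 3.37, 4.74 and 6.16 FPKM in 1KO cells, and 2.14, 6.97 and 4.37 FPKM in 1KO+1CI cells. The groups of mutant and WT libraries did not overlap. The ratio of 1KO to WT was 10.5 (6.10 to 19.5), 4.13 (3.08 to 5.60) and 5.81 (4.27 to 8.10) at days 0, 2 and 4, and that of 1KO+1CI to WT was 6.67 (3.81 to 12.6), 6.07 (4.58 to 8.15) and 4.13 (2.98 to 5.81). The fitted difference was 1.65 (SE 0.20, adjusted p = 0.0150) for 1KO and 1.51 (SE 0.20, adjusted p = 0.0117) for 1KO+1CI. The 1KO call was lost without WT day 2 (adjusted p = 0.0575), 1KO day 0 (0.0901) or 1KO day 4 (0.0964), and the 1KO+1CI call held with each single library left out. Both calls were lost without the whole of any one day (adjusted p from 0.0969 to 0.117 for 1KO and from 0.0668 to 0.118 for 1KO+1CI). *Slc25a31* was the one gene of the 8 called higher at both later days than at day 0, by 0.81 at day 2 (SE 0.20, adjusted p = 0.0322) and 0.71 at day 4 (SE 0.20, adjusted p = 0.0372). Each of these was lost when any one library of the days compared was left out. The carrier *Slc25a4*, used mainly in heart and muscle, was at 209 to 249 FPKM in WT and at 110 to 162 FPKM in the mutant libraries. Its fitted difference was −0.75 for 1KO (SE 0.158, adjusted p = 0.0617) and −0.83 for 1KO+1CI (SE 0.158, adjusted p = 0.0312), the latter called lower. The related carrier *Slc25a5* was at 383 to 653 FPKM over all libraries. Its fitted differences were 0.17 for 1KO and −0.03 for 1KO+1CI (SE 0.131), and neither was called.

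*Taf7l* (chrX:134460118-134476490) encodes a germ-cell relative of TAF7, a subunit of the general transcription factor TFIID. Its level was 0.477, 0.363 and 1.68 FPKM in WT cells at days 0, 2 and 4, 2.98, 5.76 and 3.28 FPKM in 1KO cells, and 3.30, 7.58 and 4.79 FPKM in 1KO+1CI cells. WT cells were highest at day 4, while both mutant lines were highest at day 2. The ratio of 1KO to WT was 6.25 (3.87 to 10.6), 15.9 (9.71 to 27.7) and 1.95 (1.46 to 2.65) at days 0, 2 and 4, and that of 1KO+1CI to WT was 6.92 (4.28 to 11.8), 20.9 (12.9 to 36.4) and 2.85 (2.15 to 3.82). The fitted difference was 1.47 (SE 0.299, adjusted p = 0.0552) for 1KO, which was not called, and 1.77 (SE 0.299, adjusted p = 0.0225) for 1KO+1CI, which was. The 1KO value passed without WT day 4 (1.84, adjusted p = 0.0292), with pseudocounts of 0.1 (2.34, adjusted p = 0.0456) and 0.01 (2.51, adjusted p = 0.0471), and among genes with a mean of at least 1 FPKM (adjusted p = 0.0425). The 1KO+1CI call was lost without any one of the 1KO+1CI libraries (adjusted p between 0.0707 and 0.101) or without the whole of any one day (0.0558 to 0.144). *Taf7* itself had fitted differences of 0.07 and 0.12 and levels between 38.7 and 56.4 FPKM in all 9 libraries.

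**Figure D1:**
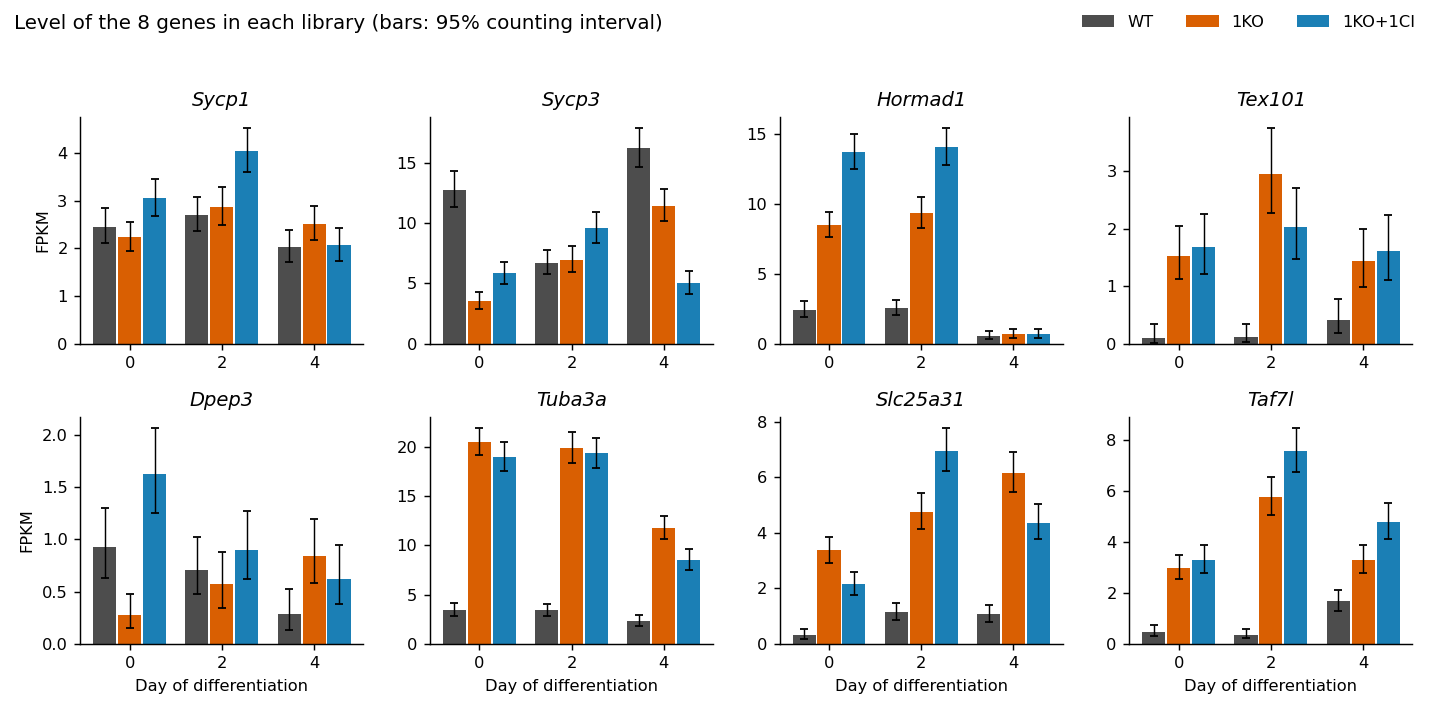
Level of each gene in FPKM (vertical axes, linear, each from 0) by day of differentiation in WT, 1KO and 1KO+1CI cells, 1 library a bar, with 95% Poisson intervals for counting error. Tex101, Tuba3a, Slc25a31 and Taf7l are higher in every mutant library than in every WT library, Hormad1 is low in all lines at day 4, and Sycp1 lies between 2.04 and 4.04 FPKM throughout.

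The 8 genes were chosen with earlier results of these data known, so the counts and medians below are not independent evidence. Counted over the 8 genes, 5 were past the fold upward in 1KO against WT cells at day 0, where 2.24% of all genes were, and 5 at day 2 (1.6% of all genes). These were *Hormad1*, *Tex101*, *Tuba3a*, *Slc25a31* and *Taf7l* on both days. At day 4, *Tuba3a* and *Slc25a31* remained past the fold, 2 of the 8 against 1.67% of all genes. None of the 8 was past the fold downward at day 2 (0.663% of all genes) or day 4 (0.59%). The median difference of the 8 genes was 1.32, 1.49 and 0.60 at days 0, 2 and 4, and the median of all genes was between −0.01 and 0.01. For 1KO+1CI against WT cells, 5, 5 and 3 genes were past the fold upward on the 3 days, against 2.54%, 2.28% and 3.01% of all genes, with medians of 1.27, 1.66 and 0.61. *Sycp3* was past the fold downward in 1KO cells at day 0 (1.55% of all genes) and in 1KO+1CI cells at days 0 (1.97%) and 4 (1.02%), and none of the 8 was in 1KO+1CI cells at day 2 (1.26%). In the fit, 3 of the 8 genes were called higher in 1KO than in WT cells, against 0.71% of all genes, and none lower (1.15%). For 1KO+1CI, 4 were called higher, against 1.8% of all genes, and none lower (2.14%). *Tex101*, *Tuba3a*, *Slc25a31* and *Taf7l* had all 3 libraries of 1KO, and all 3 of 1KO+1CI, above all 3 of WT, against 4.18% and 5.29% of all genes. No gene of the 8 had all 3 mutant libraries below all 3 of WT, where 5.15% of all genes did in 1KO and 6.52% in 1KO+1CI cells.

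Beside the *Dnmt1* level itself, the catalytically inactive transgene came with no called difference in the 8 genes. In 1KO+1CI against 1KO cells, none was called (limma), none had an unadjusted p under 0.05, and the smallest, that of *Dpep3*, was 0.124. Of all genes 1 was called, *Dnmt1* itself, which is 0.00663% upward and 0% downward, and 564 had an unadjusted p under 0.05. The fitted differences of the 8 genes lay between −0.19 for *Tuba3a* and 0.39 for *Hormad1*, with SEs from 0.156 to 0.394. These SEs leave room for differences of some size, so the lines are not shown to be alike. By day, the median difference was 0.22, 0.37 and −0.19. *Dpep3* at day 0 was past the fold upward (1.04, against 0.179% of all genes) and none of the 8 downward (0.239%). At day 2 none was past it in either direction (0.153% upward and 0.186% downward). At day 4 *Sycp3* was past it downward (−1.05, against 0.292%) and none upward (0.624%). *Tuba3a* was at 0.925 (0.836 to 1.02) and 0.971 (0.868 to 1.09) times the 1KO level at days 0 and 2 and at 0.721 (0.615 to 0.846) times at day 4. *Hormad1* was at 1.62 (1.40 to 1.86) and 1.50 (1.29 to 1.75) times the 1KO level at days 0 and 2. None of the 8 had its 3 libraries of 1KO+1CI all above or all below those of 1KO, which 1.73% and 2.01% of all genes had.

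With time, across the 3 lines, 1 of the 8 genes was called higher at day 2 than at day 0, against 7.34% of all genes, and none lower (8.11%). At day 4, 1 was called higher (11.3% of all genes) and 2 lower (12.3%). The one called higher was *Slc25a31* on both days, and the 2 called lower were *Hormad1* and *Tuba3a*.

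**Figure D2:**
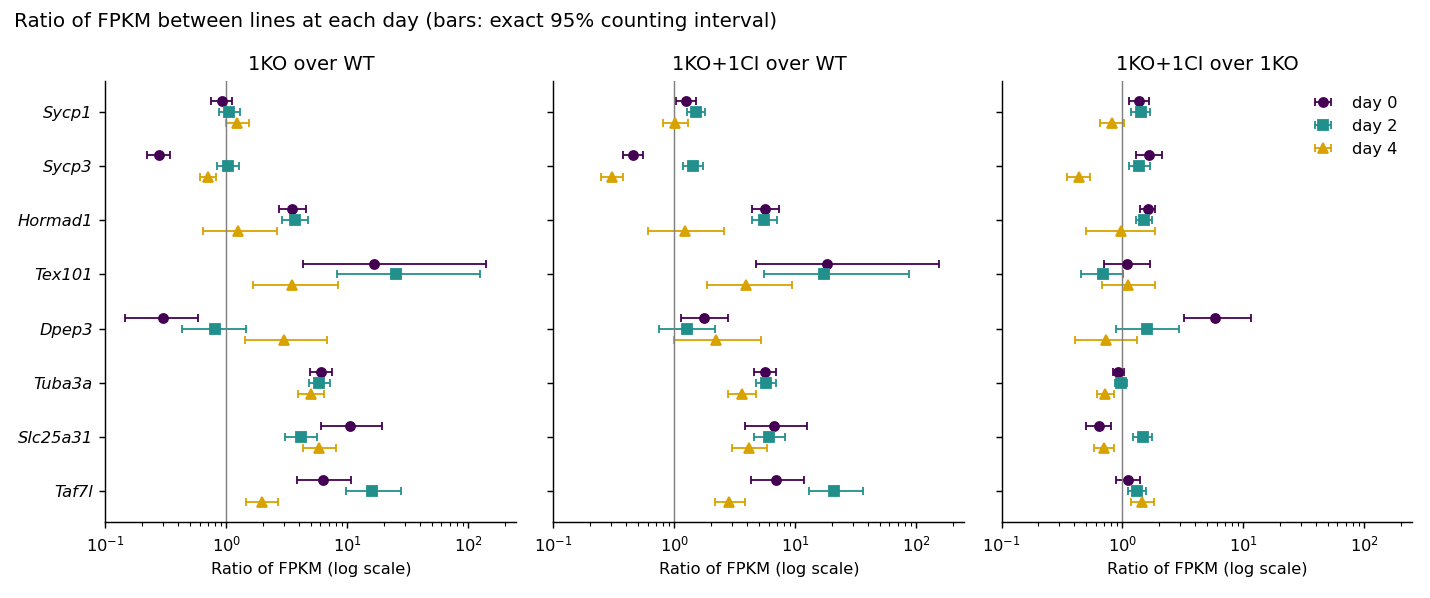
Ratio of FPKM between lines (horizontal axes, log scale) for each gene at days 0, 2 and 4, each point from 1 library over another, with exact 95% counting intervals. Against WT, Tex101, Tuba3a, Slc25a31 and Taf7l lie above 1 on all 3 days in both mutant lines, and against 1KO the ratios of 1KO+1CI lie between 0.436 and 5.86.

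The 8 genes did not follow one pattern. Over the 9 libraries, 5 of their 28 pairs had a Pearson r over 0.8, of which *Tex101* with *Taf7l* was the highest (r = 0.946), and 5 pairs had an r below 0, all of them with *Sycp3*. The 5 pairs over 0.8 were all among *Tex101*, *Tuba3a*, *Slc25a31* and *Taf7l*, the genes higher in every mutant library than in every WT library. The share of all gene pairs with such values was not counted. The lines and days are shared by all points, so these values describe the 9 libraries. The mean of the z-scores of the 8 genes was lowest in WT cells at day 4 (−0.73) and highest in 1KO+1CI cells at day 2 (1.04). Of 13280 other genes with at least 1 FPKM in 1 library, the 5 whose levels were closest to that mean were *Nxt2* (r = 0.973), *Myh3* (0.964), *Far1* (0.946), *Nxf2* (0.941) and *Usp26* (0.939). *Nxf2* ranged from 0.0203 to 2.10 FPKM, *Usp26* from 0.564 to 11.7 FPKM and *Far1* only from 22.0 to 27.5 FPKM. The closest gene to *Slc25a31* was *Rhox13* (r = 0.965), to *Tuba3a* *Fermt3* (0.981), to *Hormad1* *Npl* (0.978), to *Tex101* and *Taf7l* *Bag3* (0.974 and 0.966), to *Sycp3* *Pot1a* (0.946), to *Sycp1* *Ptpn4* (0.931) and to *Dpep3* *Bbs7* (0.910). Each r of these closest genes was picked as among the highest of 13280 over 9 libraries, so it is high partly by selection.

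Other genes of meiosis and sperm formation were taken from lists of known function. Of 20 other genes of the axis, the synaptonemal complex and meiotic cohesin, 17 were in the table, 2 were called higher in 1KO than in WT cells (0.71% of all genes) and none lower (1.15%), with a median fitted difference of 0.17 (all genes 0.00). *Hormad2*, the sister of *Hormad1*, stood at 0.798, 0.647 and 0.285 FPKM in WT cells at days 0, 2 and 4 and at 4.89, 3.43 and 2.58 FPKM in 1KO cells, a fitted difference of 1.54 (SE 0.17, adjusted p = 0.0132). *Terb2*, which anchors meiotic telomeres to the nuclear envelope, differed by 0.92 (SE 0.176, adjusted p = 0.0462). In 1KO+1CI cells 3 of the 17 were called higher (1.8% of all genes) and none lower (2.14%). *Hormad2* differed by 1.31 (SE 0.17, adjusted p = 0.0114), *Terb2* by 1.03 (SE 0.176, adjusted p = 0.0232) and *Syce1*, of the central element of the complex, by 1.47 (SE 0.272, adjusted p = 0.0287). In 1KO cells *Syce1* had 1.12 (adjusted p = 0.0915). It stood at 9.61 and 13.1 FPKM in 1KO and 1KO+1CI cells at day 0 and at 3.62 and 4.61 FPKM at day 4.

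Of 30 genes of meiotic entry and recombination, 22 were in the table and 1 was called higher in each mutant line (0.71% and 1.8% of all genes), with medians of 0.07 and −0.04. This was *Rec114*, needed for the formation of meiotic DNA breaks, at 2.26, 2.67 and 0.108 FPKM in WT cells, 10.5, 7.65 and 5.29 FPKM in 1KO cells and 16.7, 8.48 and 4.63 FPKM in 1KO+1CI cells (fitted differences of 1.86, SE 0.256, adjusted p = 0.0195, and 2.05, adjusted p = 0.0101). *Stra8*, the inducer of meiotic entry, and *Spo11*, the enzyme that makes the breaks, were not among the genes used here. Of 45 sperm and spermatid genes, 16 were in the table, of which 1 was called higher in each mutant line (0.71% and 1.8% of all genes). None was called lower in 1KO cells (1.15% of all genes) and 2 were in 1KO+1CI cells (2.14%). *Ldhc*, the lactate dehydrogenase of sperm, was called higher in 1KO cells (1.13, SE 0.191, adjusted p = 0.0340) and had 0.71 (adjusted p = 0.0851) in 1KO+1CI cells. In 1KO+1CI cells *Spag6l*, of the sperm flagellum, was called higher (0.54, SE 0.111, adjusted p = 0.0395, with 0.33 and adjusted p = 0.222 in 1KO cells), whereas *Tssk6*, a kinase of spermatids, and *Clgn*, a chaperone of the testis, were called lower, by −1.22 (SE 0.173, adjusted p = 0.0138) and −0.75 (SE 0.138, adjusted p = 0.0283). In 1KO cells *Tssk6* had −0.73 (adjusted p = 0.0841) and *Clgn* −0.60 (adjusted p = 0.0761). The medians of this list were −0.14 and −0.03, against 1.16 and 1.32 for the 8 genes, which were chosen with earlier results of these data known. Genes unseen in a library seem to be missing from the table. The medians of this and the other lists therefore leave out genes silent in WT cells, also any that came on in the mutant lines. Among the repressors, all 15 genes of PRC1.6 and E2F6 were in the table, with medians of 0.03 and 0.02. *Tfdp1*, the dimer partner of E2F proteins, was called lower in 1KO+1CI cells (−0.61, SE 0.118, adjusted p = 0.0341) and had −0.58 (adjusted p = 0.0553) in 1KO cells, at 98.0 to 140 FPKM in WT and 70.7 to 88.6 FPKM in 1KO+1CI libraries.

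**Figure D3:**
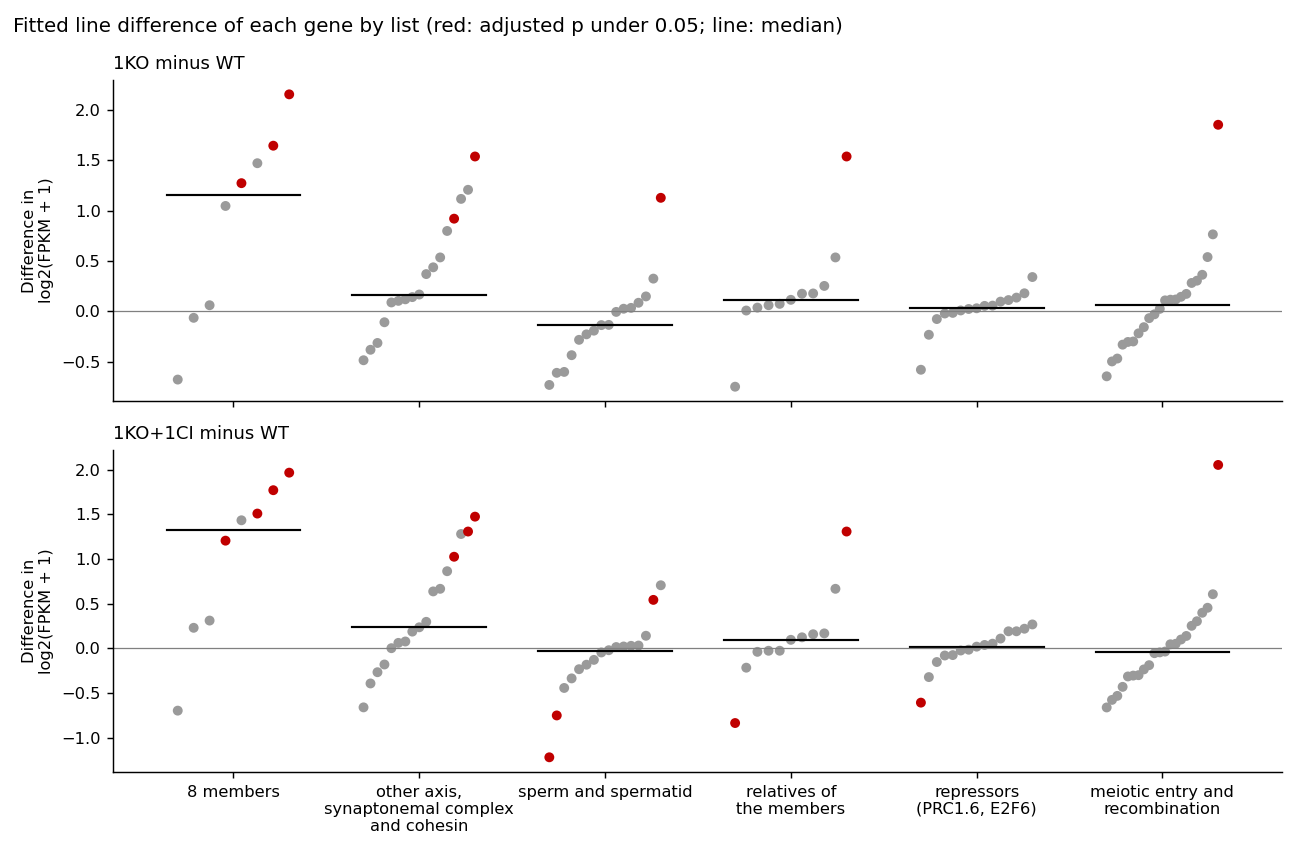
Fitted difference in log2(FPKM + 1) from WT (vertical axes) of the genes in each list (horizontal axis), 1 point a gene, sorted within a list, for 1KO (upper panel) and 1KO+1CI (lower panel). Red points have an adjusted p under 0.05 (limma) and lines are medians, which are 1.16 and 1.32 for the 8 genes and between −0.14 and 0.24 for the other lists drawn, which leave out the cell type markers.

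Markers of other cells were summed for each library. Of 10 fibroblast markers, 9 were in the table, and at day 0 their sum was 95.4 FPKM in WT cells, against 188 FPKM in 1KO cells and 218 FPKM in 1KO+1CI cells. At days 2 and 4 the sum was 13.3 and 15.6 FPKM in WT cells, 21.3 and 16.6 FPKM in 1KO cells and 29.2 and 28.6 FPKM in 1KO+1CI cells. The sum was higher in both mutant lines than in WT cells on each day, and its part in the differences of the 8 genes was not tested. *Col1a2*, a collagen, was the only one of the 9 called higher in 1KO+1CI cells (1.15, SE 0.146, adjusted p = 0.0107), where 1.8% of all genes were. It had 0.62 (adjusted p = 0.0825) in 1KO cells. Of 9 primitive endoderm markers, all in the table, 1KO+1CI cells had 6 called above WT (1.8% of all genes), and 1KO cells had none (0.71%). In 1KO cells 8 of the 9 had fitted values above 0, with a median of 0.27 against 0.72 in 1KO+1CI cells. The 6 were *Gata6* (1.06, adjusted p = 0.0150), *Dab2* (1.37, 0.0127), *Pdgfra* (0.84, 0.0240), *Col4a1* (0.79, 0.0419), *Lamb1* (0.72, 0.0437) and *Sox7* (0.54, 0.0335). Their summed level ran from 37.3 to 67.7 FPKM in WT libraries, from 50.8 to 80.0 FPKM in 1KO libraries and from 76.9 to 130 FPKM in 1KO+1CI libraries, and its part in the differences of the 8 genes was not tested.

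Of 8 markers of primordial germ cells, all in the table, *Dppa3* alone was called higher in both lines (1.08, SE 0.116, adjusted p = 0.0121, and 1.05, adjusted p = 0.00635), against 0.71% and 1.8% of all genes. Their sum was 109 FPKM at day 0 and 17.5 FPKM at day 4 in WT cells, 176 and 33.1 FPKM in 1KO+1CI cells, and 173 FPKM at day 0 in 1KO cells, which had the highest sum of the 3 lines at day 4. At day 4, 6 of the 8 were called lower than at day 0, against 12.3% of all genes. ESCs also express several of these markers. Of 7 markers of undifferentiated ESCs, *Klf4* alone was called between lines, higher in 1KO+1CI cells (1.01, SE 0.154, adjusted p = 0.0166), where 1.8% of all genes were. It had 0.70 (adjusted p = 0.0700) in 1KO cells. Of 4 epiblast markers none was called between lines, and 4 were called higher at day 4 than at day 0, against 11.3% of all genes. Of 8 markers of Sertoli and Leydig cells, 5 were in the table, and their sum did not exceed 8.33 FPKM in any library. The Sertoli marker *Amh* and the steroid enzymes *Cyp17a1* and *Hsd3b1* were not among the genes used here.

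**Figure D4:**
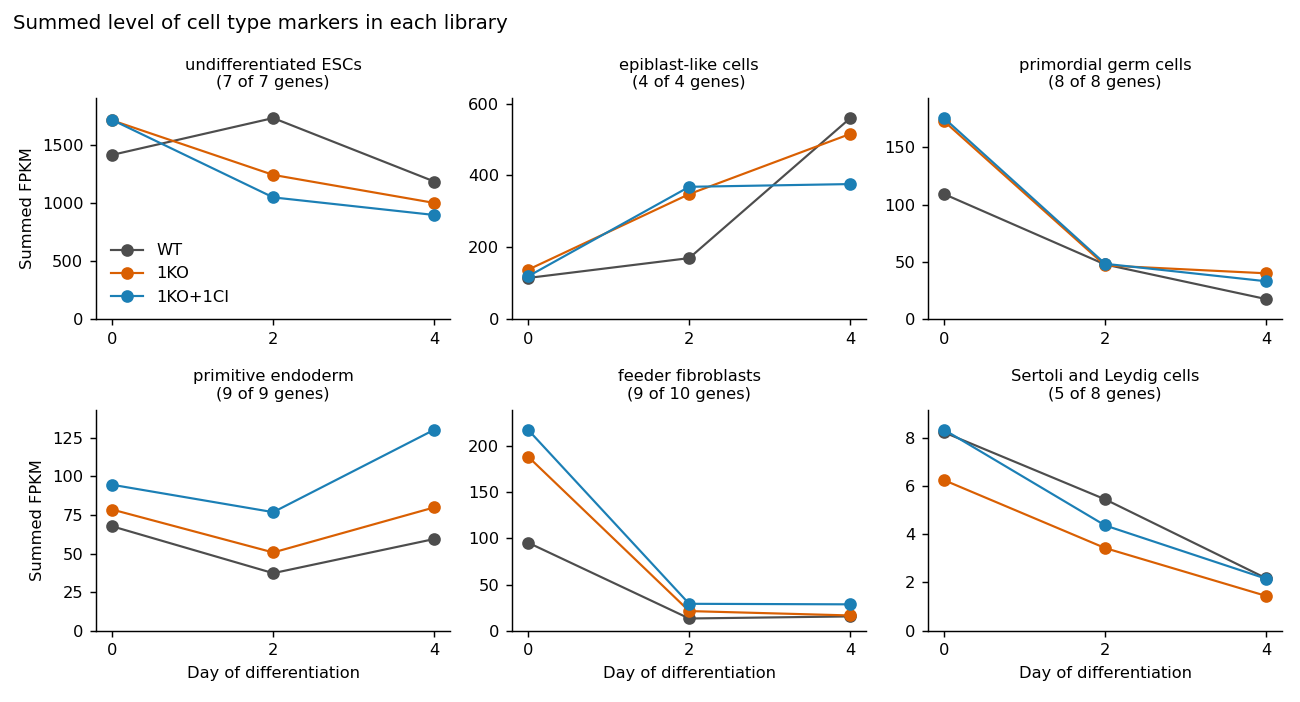
Summed FPKM of each marker list (vertical axes, from 0) by day of differentiation (horizontal axes), 1 point a library, for WT, 1KO and 1KO+1CI cells. Fibroblast markers are at 95.4 to 218 FPKM at day 0 and at 13.3 to 29.2 FPKM later, and primitive endoderm markers are highest in 1KO+1CI cells on each day.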

How the data were processed

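RNA-seq of 9 libraries was used, 1 for each of 3 lines and 3 days. Reads had been trimmed with Trim Galore, mapped to mm10 with HISAT2 and handled with SAMtools, and the deposited FPKM values were made by the authors with analyzeRepeats.pl of HOMER. Tool versions, strand setting, gene annotation and the rule for multiply mapped reads are not named in the sources used here. No value is 0, so genes unseen in a library seem to have been dropped before deposit. Of 15095 entries, 21 that name no gene were left out. A table of repeat copies was not used.

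Line and day effects were estimated on log2(FPKM + 1) with limma 3.58.1 (R 4.3.3, additive line and day terms, trended empirical Bayes, 4 residual degrees of freedom) and Benjamini-Hochberg adjustment over 15074 genes. Since each condition has 1 library, a line effect that changes with the day cannot be tested, and p-values measure the remainder of the fit and not the spread between cultures. Depth was recovered as the total that brought FPKM times transcript length closest to whole reads over 1369 to 1612 genes a library with 1 RefSeq transcript. Whether 1 step is a read or a pair is not known, and mates counted singly would make the intervals too narrow. Transcript lengths from GENCODE M21 (GRCm38, the same assembly as mm10) turn FPKM into reads, and for *Sycp1*, *Sycp3*, *Tuba3a* and *Hormad1* these reads are estimates. Ratios have exact Clopper-Pearson intervals on the reads of both libraries. Other computations used scipy 1.17.1, pandas 2.3.3, numpy 2.4.6 and matplotlib 3.10.9 under Python 3.11.15.

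The 8 genes and the lists of related genes and markers were chosen with earlier results of these data known, so their counts are not independent evidence. Beside the 8 genes, the text names each gene of a list that was called between lines, *Tuba3b*, *Taf7* and the genes whose levels were closest to the 8 genes. *Stra8*, *Spo11*, *Slc25a5*, the other alpha-tubulins and absent markers were named after the values were seen. Alternatives were pseudocounts of 0.1 and 0.01, a common sum, median-ratio scaling, a mean of at least 1 FPKM, no second term in the fit, no trend, the mean over the 8 genes, and leaving out each library, day or line.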

Additional observations from a re-analysis of the deposited data

Results flagged for a closer look

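Single-library ratios of *Sycp3*, *Dpep3*, *Slc25a31* and *Taf7l* lay on opposite sides of 1 in different days or lines, with counting intervals that left out 1 on both sides. The share of all genes with such ratios was not counted, so they are not shown to be particular to these genes. The difference between days or lines was not tested, since each condition has 1 library. *Sycp3* was at 0.456 and 0.307 times the WT level in 1KO+1CI cells at days 0 and 4 and at 1.42 times at day 2. Against 1KO cells, 1KO+1CI cells had 1.65 and 1.38 times the *Sycp3* level at days 0 and 2 and 0.436 times at day 4. From day 0 to day 2, *Sycp3* changed 0.526-fold in WT cells, 1.97-fold in 1KO cells and 1.64-fold in 1KO+1CI cells, and from day 2 to day 4 it changed 2.42-fold, 1.65-fold and 0.521-fold.

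*Dpep3* was at 0.30 times the WT level in 1KO cells at day 0 and at 2.98 times at day 4. From day 0 to day 4 WT cells had a ratio of 0.307, 1KO cells of 3.05 and 1KO+1CI cells of 0.383, on 10 to 65 reads. *Slc25a31* in 1KO+1CI cells was at 0.636, 1.47 and 0.710 times the 1KO level at days 0, 2 and 4, and from day 2 to day 4 1KO cells had a ratio of 1.30 and 1KO+1CI cells of 0.627. *Taf7l* changed 4.63-fold from day 2 to day 4 in WT cells, 0.570-fold in 1KO cells and 0.631-fold in 1KO+1CI cells. Its WT values rest on 17 reads at day 2 and 68 reads at day 4.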

How the results depend on the processing

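Lines were compared within days by the day term, and the labels give no other number by which to pair libraries. In 1KO against WT cells, 281 genes and 3 of the 8 were called. Without the day term these were 2 genes and 0 of the 8, and over the fits that left out a library or a day they ranged from 2 to 356 genes and from 0 to 5 of the 8. In 1KO+1CI against WT cells, 593 genes and 4 of the 8 were called, 6 and 0 without the day term, and 2 to 684 and 0 to 5 with a library or a day left out. Between 1KO+1CI and 1KO cells 1 gene was called, and 0 to 1 with a library or a day left out. For day 2 against day 0, 1 of the 8 was called, 0 without the line term and 0 to 1 with a library or a line left out. For day 4 against day 0, 3 were called, 1 without the line term and 0 to 3 with a library or a line left out.

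At days 0, 2 and 4, the median difference of the 8 genes between 1KO and WT cells was 2.09, 1.90 and 1.11 with a pseudocount of 0.1 and 2.20, 1.96 and 1.25 with 0.01. Between 1KO+1CI and WT cells it was 2.43, 2.45 and 1.18 with 0.1 and 2.49, 2.49 and 1.31 with 0.01. The mean in place of the median was 0.73 and 1.17 for 1KO at days 0 and 2, and 1.00 and 1.42 for 1KO+1CI. A larger pseudocount shrinks differences of low genes by construction. A common sum and median-ratio scaling moved no median beyond its counting interval. Of 755 fitted values of the 8 genes under alternatives, 676 kept their side of the threshold, 69 lost and 10 gained a call, and no called value changed sign.

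With 1 library a condition, none of the differences can be compared with the spread between cultures. *Tex101* in WT cells rests on 2 to 9 reads and *Dpep3* on 10 to 65 reads in all lines, so ratios of these genes are wide at this depth.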
